A study of Mus musculus with 12 samples.

Results

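The ZFP genes are the zinc finger protein genes of mouse whose names begin with ZFP and a number. They were taken as every row name of the deposited tables with those letters followed by a digit, which gave 262 of 11481 genes, or 2.28%. Names are written as the tables give them, so that a few keep an older form, such as ZFP161 for the gene now called Zbtb14. Of the 262 members, 254 were in the table of mock-treated cells, 245 in that of doxorubicin-treated cells and 237 in both.

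RNA had been sequenced from primary mouse embryonic fibroblasts of hybrid 129/B6 origin. WT cells carried both copies of lincRNA-p21, a long noncoding RNA that p53 induces, and KO cells lacked it. Each genotype was mock treated or given 0.5 mM doxorubicin for 24 h, a drug that breaks DNA, and the dose unit is as the labels state it, with micromolar doses being more usual. Each of these 4 groups had 3 libraries, described as biological replicates without naming embryos or lines. LincRNA-p21 was itself not analysed here, and no check of genotype was made from it.

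Most ZFP proteins bind DNA through C2H2 zinc fingers, short folds in which a pair of cysteines and a pair of histidines hold a zinc ion, strung in tandem so that each finger reads a few bases. Many of them also carry a KRAB domain, which recruits the co-repressor TRIM28 (KAP1) and through it SETDB1, HP1 proteins and DNA methylation to silence retroelements and imprinted loci. A smaller number have other jobs, among them transcriptional activation, mRNA decay and ribosome assembly, and some lack C2H2 fingers altogether.

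The letters of the proteins show this split. In translations of the GENCODE M21 coding sequences, available for 261 members, the spacing of a C2H2 finger occurred a median of 10 times per protein, and 136 members had 10 or more. ZFP142 had the most, with 36. A KRAB letter pattern within the first 250 residues was found in 114 members, with a median of 12 fingers, and not in 147, with a median of 7. Divergent KRAB boxes would be missed by that pattern. Only 7 members had no match to the finger spacing, namely ZFP36, ZFP36L1 and ZFP36L2, which have 2 CCCH fingers instead, and ZFP259, ZFP330, ZFP365 and ZFP503. Members lay on all 19 autosomes, with 68 on chromosome 7, 29 on chromosome 17 and 21 on chromosome 13.

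The members' promoters shared a short sequence more often than those of other genes. RefSeq promoters (250 bases before to 50 after the start, build GRCm38.p6) were held for 213 members and for 8660 of the other measured genes. The letters ACTACA, any 2 bases and then TCC, which the site bound by human ZNF143 contains, occurred on either strand in 41 of the 213 (19.2%), against 425 of the 8660 (4.91%) and 1.98% of all 32851 promoters of that length. It was in 27 of 97 members with the KRAB pattern (27.8%) and in 14 of 116 without (12.1%). ZFP genes lie in tandem arrays of copies that share sequence, so that these promoters are not independent of one another. GGGCGG, the core of a GC box, went the other way, with 111 of 213 members (52.1%) against 6277 of the other genes (72.5%) and 35.7% of all promoters. The windows below show the 4 members with the match that are described further on or listed by role, and the 4 others with the highest mean CPM. Each runs 5′ to 3′ in the direction of the match, with the match in capitals.
ZFP14: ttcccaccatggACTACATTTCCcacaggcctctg
ZFP146: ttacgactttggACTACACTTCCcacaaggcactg
ZFP260: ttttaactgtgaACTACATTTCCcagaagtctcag
ZFP606: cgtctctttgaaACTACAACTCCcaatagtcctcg
ZFP219: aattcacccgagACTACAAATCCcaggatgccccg
ZFP317: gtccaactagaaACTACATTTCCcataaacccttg
ZFP334: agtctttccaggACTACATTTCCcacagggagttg
ZFP708: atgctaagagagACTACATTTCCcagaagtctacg

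In GRCm38.p6 the windows of ZFP14, ZFP146 and ZFP260 lay near one another on chromosome 7, at chr7:30051388-30051422 (minus strand), chr7:30169848-30169882 (plus strand) and chr7:30095036-30095070 (minus strand), and that of ZFP606 at chr7:12478269-12478303 (plus strand). The ZFP219 window was at chr14:52019697-52019731 (plus strand), that of ZFP317 at chr9:19621855-19621889 (plus strand), that of ZFP334 at chr2:165388354-165388388 (plus strand) and that of ZFP708 at chr13:67081574-67081608 (plus strand). Of these 8 matches, 5 had TT between the fixed letters. Members with the match and without it are compared by counts of called genes, with no test of the difference. Of 34 with the match that were measured in both tables, 4 were called higher and 2 lower in WT cells, by the test described below, against 38 and 30 of 159 members whose promoters lacked it. In KO cells the counts were 4 and 2 of 34 against 32 and 11 of 159. Of all genes, 25.9% were called higher and 21.4% lower in WT, and 19.9% and 14.6% in KO.

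Values are CPM, reads of a gene scaled to a common library total, and library totals ran from 14327048 to 20511907 reads, at which 2 CPM was 29 to 41 reads. Both tables hold just genes whose WT libraries all exceed 2 CPM, a floor that KO libraries did not have to meet, and 1 member per table had at least 1 KO library that did not. The cells carried fibroblast markers, with 9 of 10 measured and a summed level of 46810 to 64100 CPM in mock libraries and 29550 to 39930 CPM after doxorubicin. Of the epithelial markers 1 of 6 was measured, of the endothelial 2 of 5 in the mock and 1 of 5 in the doxorubicin table, of blood 1 of 5 (Cd68), of muscle 2 of 5 and of neural 2 of 5. Cd68, a macrophage gene, ran from 2.42 to 58.3 CPM in mock libraries and from 45.4 to 125.6 CPM after doxorubicin. KDR, the endothelial gene in both tables, ran from 2.25 to 7.68 CPM in mock libraries and from 24.7 to 35.0 CPM after doxorubicin. The muscle markers summed to 75.9 to 434 CPM in WT and 30.9 to 182 CPM in KO mock libraries, and to 44.6 to 204 CPM in WT and 22.6 to 52.5 CPM in KO after doxorubicin, with overlap. The part of these markers in the results was not tested.

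ZFP mRNAs were low for the most part. The median member was at 14.3 CPM in WT mock, 14.8 CPM in KO mock, 15.4 CPM in WT doxorubicin and 17.2 CPM in KO doxorubicin cells, and only 3 to 6 members per group passed 100 CPM. Per kilobase of transcript, ZFP207 (BuGZ), a kinetochore protein that stabilises the mitotic checkpoint protein Bub3, was the highest in every group, at 105 CPM per kb in WT mock and 94.3 in WT doxorubicin cells. ZFP740 followed, at 80.1 and 88.4 CPM per kb. Members with the KRAB pattern had a median of 2.16 CPM per kb in WT mock cells and those without it 6.22, and in KO doxorubicin cells the medians were 2.81 and 6.38. Among the members with 10 or more fingers the WT mock median was 2.61 CPM per kb, and among those with 1 to 4 fingers 7.31. In these bulk samples fewer cells making an RNA and less RNA per cell cannot be told apart.

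The summed CPM of the 237 members in both tables was 5593, 5595 and 5648 in the WT mock libraries, 5987, 5813 and 6043 in KO mock, 6365, 5875 and 6073 in WT doxorubicin and 6487, 6382 and 6327 in KO doxorubicin. Every KO mock library lay above every WT mock library, and in each genotype the doxorubicin libraries lay above the mock libraries. WT and KO doxorubicin libraries overlapped, while within each of the 3 replicate numbers the KO library was the higher. The median of all genes in both tables showed the same pattern, so it was not particular to the members. That median was 36.3 to 36.7 CPM in WT mock and 37.8 to 38.6 CPM in KO mock libraries. After doxorubicin it was 38.5 to 40.7 CPM in WT and 39.9 to 40.8 CPM in KO, with KO the higher within each replicate number.

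With doxorubicin about as many ZFP genes were called higher as lower in WT cells, and more higher than lower in KO cells, a contrast between genotypes that these counts do not test. The test was limma on log2(CPM + 1) over the 10292 genes of both tables, with Benjamini-Hochberg adjustment over all of them, and a gene is said to be called, to have risen or to have fallen where the adjusted p was under 0.05. In WT cells 48 of 237 members rose (20.3%), where 25.9% of all genes did, and 44 fell (18.6%), where 21.4% of all genes did. In KO cells 41 rose (17.3%, all genes 19.9%) and 18 fell (7.595%, all genes 14.6%). With the replicate number as a block, the WT counts became 59 higher and 58 lower, beside 3459 and 3097 of all 10292 genes. The KO counts became 63 higher and 37 lower, where 29.6% and 24.0% of all genes were called. The median member changed by -0.02 in WT and 0.06 in KO on the log2 scale, beside 0.01 and 0.04 for all genes.

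The number of falls depended on scaling and on single libraries. Centring each library on its median gene moved the median of all genes in WT from 0.01 to -0.10, and the members' split from 48 higher and 44 lower to 39 and 66, and in KO from 41 and 18 to 31 and 26. Quantile normalization gave 41 higher and 59 lower in WT. In WT the 44 falls became 29 without WT doxorubicin library 2 or 3 and 60 without library 1, and in KO the 18 became 6 without KO doxorubicin library 3, 9 without KO mock library 3 and 11 without KO mock library 1. Counts over all 10292 genes moved as well. Median centring took them from 2664 higher and 2199 lower to 2202 and 2944 in WT, and from 2052 and 1500 to 1669 and 2027 in KO. Quantile normalization gave 2308 and 2771 in WT. All-gene falls in WT became 2012, 1594 and 2310 without WT doxorubicin library 2, 3 and 1. Those in KO became 1003, 1244 and 1124 without KO doxorubicin library 3, KO mock library 3 and KO mock library 1.

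In both genotypes 33 members were called higher (13.9%, all genes 18.0%) and 18 lower (7.595%, all genes 12.5%), and 0 in opposite directions. Another 15 were called higher in WT alone (6.33%, all genes 7.86%) and 26 lower (11.0%, all genes 8.90%). In KO alone it was 8 higher (3.38%, all genes 1.91%) and 0 lower (all genes 2.11%). With the replicate block 48 were higher (20.25%, all genes 26.2%) and 33 lower (13.9%, all genes 21.0%) in both. In WT alone it was then 11 higher (4.64%, all genes 7.35%) and 25 lower (10.55%, all genes 9.10%). For KO alone the blocked counts were 15 higher (6.33%, all genes 3.43%) and 4 lower (1.69%, all genes 2.99%). A call in 1 genotype alone does not show a difference between them. Among members called in both, the KO change was the smaller in 28 of 33 rises (84.8%, all genes 78.2%) and 14 of 18 falls (77.8%, all genes 66.6%).

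**Figure D1:**
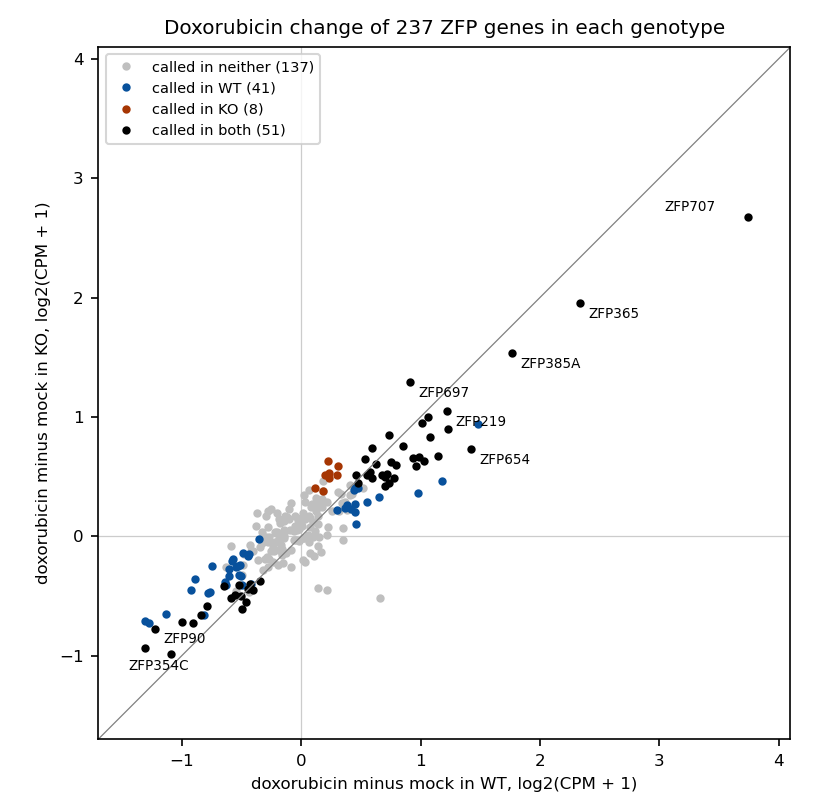
Change of the 237 ZFP genes with doxorubicin, as doxorubicin minus mock on the log2(CPM + 1) scale, in WT (horizontal axis) and KO cells (vertical axis), coloured by where limma called the gene. Of the 51 genes called in both genotypes, 28 of the 33 risers and 14 of the 18 fallers had the smaller change in KO, and ZFP707 lies farthest out, at 3.74 in WT and 2.68 in KO.

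ZFP707, a KRAB zinc finger gene on chromosome 15 with 7 fingers and no role stated here, changed the most. It was at 6.14, 5.21 and 6.08 CPM in the WT mock libraries and 6.24, 5.56 and 6.03 CPM in KO mock, and at 84.1, 74.6 and 116 CPM in WT and 29.5, 39.9 and 68.9 CPM in KO doxorubicin libraries. Low in all 6 mock libraries, it was 15.8-fold higher after doxorubicin in WT and 7.76-fold higher in KO, with no overlap. On the log2 scale the change was 3.74 in WT (SE 0.26, limma adjusted p = 6.44e-06) and 2.68 in KO (SE 0.26, adjusted p = 6.91e-05).

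ZFP365 and ZFP385A, both known as p53 targets, came next. ZFP365, which guards the genome under replication stress, was at 31.5, 28.8 and 40.4 CPM in WT mock libraries, 36.6, 36.7 and 46.5 CPM in KO mock libraries, and at 172, 131 and 228 CPM in WT and 140.1, 131 and 210.2 CPM in KO after doxorubicin. All doxorubicin libraries lay above all mock libraries. The fit put the log2 change at 2.34 in WT (SE 0.23, limma adjusted p = 3.34e-05) and 1.95 in KO (SE 0.23, adjusted p = 0.000190). ZFP385A (HZF), an RNA-binding protein that also acts on the choice of genes by p53, was at 44.0, 41.2 and 48.1 CPM in WT mock libraries, 42.5, 36.4 and 45.9 CPM in KO mock, 149.8, 126 and 193 CPM in WT doxorubicin and 108, 116 and 144 CPM in KO doxorubicin libraries. Mock and doxorubicin libraries were again apart in both genotypes. For this gene limma gave a log2 change of 1.77 in WT (SE 0.16, adjusted p = 2.66e-05) and of 1.53 in KO (SE 0.16, adjusted p = 0.000110). Their RefSeq promoters are shown because these were the highest members after doxorubicin among the 6 largest rises, and the table holds none for ZFP707. Capitals mark GC box cores (GGGCGG or CCGCCC).
ZFP365: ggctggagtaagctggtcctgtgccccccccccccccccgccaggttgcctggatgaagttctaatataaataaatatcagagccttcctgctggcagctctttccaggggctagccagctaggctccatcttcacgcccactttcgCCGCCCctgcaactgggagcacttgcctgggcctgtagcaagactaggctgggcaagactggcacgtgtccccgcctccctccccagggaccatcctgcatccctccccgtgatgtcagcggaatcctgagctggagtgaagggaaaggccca
ZFP385A: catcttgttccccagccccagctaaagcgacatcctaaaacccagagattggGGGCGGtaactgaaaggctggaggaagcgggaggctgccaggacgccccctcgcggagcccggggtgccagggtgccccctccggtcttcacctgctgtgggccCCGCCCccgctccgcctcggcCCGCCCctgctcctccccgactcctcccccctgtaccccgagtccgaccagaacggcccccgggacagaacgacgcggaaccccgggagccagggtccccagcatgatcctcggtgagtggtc

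In GRCm38.p6 these windows were chr10:67912613-67912912 (minus strand) and chr15:103340037-103340336 (minus strand), the latter 1 of 2 starts in the table. ZFP365 had 1 GC box core and 8 CG pairs in 300 bases, and ZFP385A 3 cores and 23 CG pairs. A p53 half-site by its letters was found in neither window, and in 14 of 213 members (6.57%), 8.29% of the other measured genes and 8.36% of all promoters. That says only that the letters are not in these windows.

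ZFP219, a partner of the cartilage factor Sox9 in mouse, rose in both genotypes, from 42.2, 29.1 and 42.9 to 92.3, 71.5 and 107 CPM in WT, and in KO from 46.5, 28.9 and 45.3 to 84.1, 66.2 and 101 CPM. Library 2 was the lowest in each group, and mock and doxorubicin did not overlap. This was a log2 change of 1.23 in WT (SE 0.23, limma adjusted p = 0.00149) and 1.05 in KO (SE 0.23, adjusted p = 0.00572). ZFP697 was at 8.24, 13.4 and 15.3 CPM in WT mock libraries, 20.1, 19.9 and 31.6 CPM in WT doxorubicin libraries, and at 7.00, 14.0 and 9.19 and 17.4, 33.8 and 27.0 CPM in KO. It was higher in every doxorubicin library, by a log2 change of 0.91 in WT (SE 0.31, limma adjusted p = 0.0332) and 1.29 in KO (SE 0.31, adjusted p = 0.00910). The WT call ended without WT mock library 1 or 2 or WT doxorubicin library 3 (largest adjusted p 0.129).

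ZFP654 was even across mock libraries, at 7.61, 7.47 and 8.27 CPM in WT, against 8.02, 8.13 and 7.05 CPM in KO, and reached 16.6, 30.0 and 23.1 CPM in WT and 10.2, 13.4 and 17.8 CPM in KO after doxorubicin. The rise was 2.98-fold in WT and 1.78-fold in KO, without overlap. The log2 change was 1.43 in WT (SE 0.22, limma adjusted p = 0.000448) and 0.73 in KO (SE 0.22, adjusted p = 0.0262). The KO call ended without any 1 of KO mock libraries 1 to 3 or KO doxorubicin libraries 2 and 3 (largest adjusted p 0.109).

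**Figure D2:**
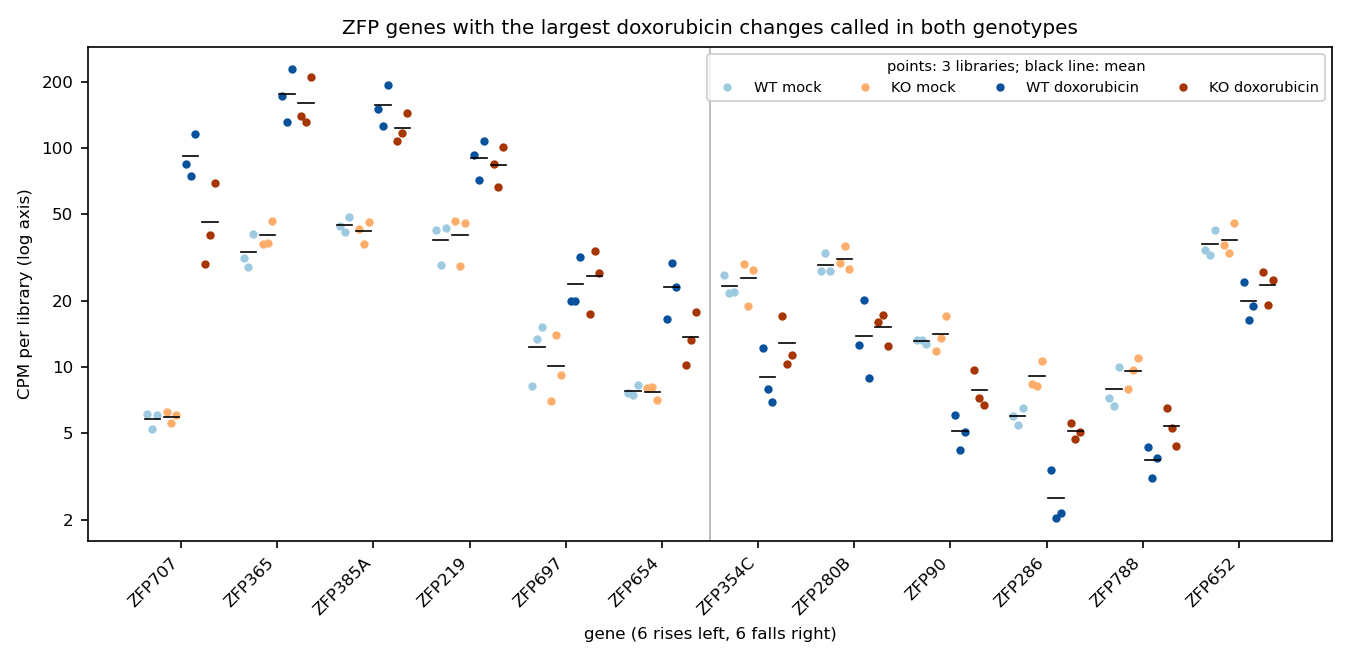
CPM of each library (points, log axis) and group mean (black line) for the 6 largest rises and 6 largest falls among the ZFP genes called in both genotypes. ZFP707 goes from 5.21 to 6.24 CPM in the mock libraries to 29.5 to 116 CPM after doxorubicin, whereas ZFP354C goes from 18.9 to 29.7 CPM to 6.90 to 17.0 CPM.

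The other 27 members called higher in both genotypes rose by log2 0.46 to 1.23 in WT and 0.42 to 1.00 in KO. Among them were ZFP3, ZFP36, ZFP62, ZFP64, ZFP119, ZFP143, ZFP160, ZFP263, ZFP281, ZFP287, ZFP295, ZFP346, ZFP426, ZFP429, ZFP498, ZFP511, ZFP553, ZFP598, ZFP622, ZFP646, ZFP655, ZFP677, ZFP747, ZFP760, ZFP809 and ZFP874. ZFP119 and ZFP874 have close copies in the genome, and how reads shared by copies were counted is not given in the sources used here, so their values are uncertain.

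Among the falls, ZFP354C, a KRAB gene with 11 fingers, had the largest mean change over both genotypes. It went from 26.2, 21.7 and 22.1 to 12.3, 7.95 and 6.90 CPM in WT, and in KO from 29.7, 18.9 and 27.9 to 17.0, 10.4 and 11.4 CPM. No doxorubicin library reached the mock libraries of its genotype. On the log2 scale the change was -1.31 in WT (SE 0.24, limma adjusted p = 0.00129) and -0.93 in KO (SE 0.24, adjusted p = 0.0125). The KO call ended without KO mock library 1 (adjusted p = 0.0509). ZFP280B fell from 27.4, 33.3 and 27.4 to 12.6, 20.1 and 8.96 CPM in WT, and in KO from 29.7, 35.8 and 28.0 to 16.1, 17.2 and 12.5 CPM. As a share of the mock mean, this was 0.473 in WT and 0.490 in KO. For ZFP280B limma gave a log2 change of -1.09 in WT (SE 0.24, adjusted p = 0.00341) and of -0.99 in KO (SE 0.24, adjusted p = 0.00888).

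ZFP90, ZFP286 and ZFP788, 3 further genes with the KRAB pattern, were low to begin with. ZFP90 fell from 13.3, 13.3 and 12.8 to 6.04, 4.19 and 5.07 CPM in WT, and in KO from 11.9, 13.5 and 17.2 to 9.73, 7.26 and 6.70 CPM. The fit put the log2 change at -1.22 in WT (SE 0.18, limma adjusted p = 0.000321) and -0.77 in KO (SE 0.18, adjusted p = 0.00740). After doxorubicin its 3 KO libraries lay above its 3 WT libraries. ZFP286 fell from 6.00, 5.46 and 6.48 to 3.40, 2.05 and 2.17 CPM in WT, and in KO from 8.34, 8.23 and 10.7 to 5.57, 4.68 and 5.08 CPM, and here the KO libraries lay above the WT libraries in both treatments. For ZFP286 limma gave a log2 change of -0.997 in WT (SE 0.17, adjusted p = 0.000859) and of -0.72 in KO (SE 0.17, adjusted p = 0.00873). ZFP788, with 23 fingers, went from 7.26, 6.61 and 10.0 to 4.30, 3.12 and 3.84 CPM in WT, and in KO from 7.96, 9.75 and 11.0 to 6.53, 5.26 and 4.39 CPM. For ZFP788 limma gave a log2 change of -0.90 in WT (SE 0.20, adjusted p = 0.00318) and of -0.73 in KO (SE 0.20, adjusted p = 0.0146), and the KO call ended without KO mock or KO doxorubicin library 3 (largest adjusted p 0.0622).

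ZFP652, known in human cells as a partner of the co-repressor CBFA2T3, fell from 34.2, 32.5 and 42.1 to 24.4, 16.3 and 19.1 CPM in WT, and in KO from 36.0, 33.0 and 45.6 to 27.2, 19.2 and 24.8 CPM. Mock and doxorubicin were apart in both genotypes. This was a log2 change of -0.84 in WT (SE 0.19, limma adjusted p = 0.00400) and -0.66 in KO (SE 0.19, adjusted p = 0.0191). The KO call ended without KO mock library 3 or KO doxorubicin library 2 (largest adjusted p 0.0747). The remaining 12 members called lower in both genotypes fell by 0.35 to 0.79 in WT and by 0.38 to 0.61 in KO on the log2 scale. They were ZFP9, ZFP91, ZFP106, ZFP146, ZFP148, ZFP161, ZFP260, ZFP277, ZFP282, ZFP318, ZFP382 and ZFP532.

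Members of known role were followed by list, and the lists are small. Among all genes 25.9% rose and 21.4% fell in WT, and 19.9% and 14.6% in KO. Of the CCCH mRNA decay factors, which bind AU-rich elements and shorten the life of cytokine and growth factor mRNAs, 1 of 3 rose in each genotype and 0 fell. ZFP36 (tristetraprolin) was at 38.6, 48.4 and 32.1 CPM in WT mock, 75.3, 74.2 and 106 CPM in WT doxorubicin, 39.3, 37.6 and 34.9 CPM in KO mock and 63.7, 52.3 and 90.2 CPM in KO doxorubicin libraries. Doxorubicin and mock libraries did not overlap. The log2 change was 1.08 in WT (SE 0.21, limma adjusted p = 0.00177) and 0.83 in KO (SE 0.21, adjusted p = 0.0113). Its paralogs were not called, with ZFP36L1 at 86.3 ± 24.4 CPM in WT mock, against 71.7 ± 2.76 CPM in WT doxorubicin cells and ZFP36L2 at 203 ± 63.4 and 169.9 ± 24.6 CPM (SD, n = 3 each).

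Factors of RNA handling and ribosomes rose in 4 of 6 cases in WT and 3 of 6 in KO, with 1 fall in each, and this list includes ZFP385A. Rises among all genes were 25.9% in WT and 19.9% in KO. ZFP622, whose yeast counterpart Rei1 matures the large ribosomal subunit, was at 41.9, 43.2 and 38.7 CPM in WT mock libraries, 87.0, 117 and 93.5 CPM in WT doxorubicin libraries, and at 46.9, 44.0 and 35.1 and 64.7, 95.5 and 78.5 CPM in KO. That was 2.40-fold in WT and 1.89-fold in KO. On the log2 scale the change was 1.23 in WT (SE 0.16, limma adjusted p = 0.000169) and 0.90 in KO (SE 0.16, adjusted p = 0.00196). ZFP598, the ubiquitin ligase that marks collided ribosomes, was at 55.5, 59.3 and 51.8 CPM in WT mock, 96.1, 106 and 126 CPM in WT doxorubicin, 61.3, 59.8 and 52.1 CPM in KO mock and 76.3, 96.7 and 89.5 CPM in KO doxorubicin libraries. In both genotypes the treated libraries were all above the mock libraries, and limma gave a log2 change of 0.96 in WT (SE 0.13, adjusted p = 0.000180) and of 0.59 in KO (SE 0.13, adjusted p = 0.00510).

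ZFP593, related to the yeast subunit-export factor Bud20, rose in WT (log2 0.44, SE 0.15, limma adjusted p = 0.0271), a call that ended without WT mock library 1 or 2 or WT doxorubicin library 2 or 3, and was at 0.39 in KO (SE 0.15, adjusted p = 0.0583, and 0.0259 with the replicate block). ZFP106, an RNA-binding protein, had the highest mean CPM of the members in both mock groups, at 241 ± 19.7 CPM in WT, against 249.9 ± 19.2 CPM in KO (SD, n = 3 each), and fell to 169 ± 31.3 and 188 ± 18.9 CPM. Its change was -0.52 in WT (limma adjusted p = 0.00977) and -0.41 in KO (adjusted p = 0.0396). The KO call ended without WT mock library 3, any 1 KO mock library, or KO doxorubicin library 2 or 3 (largest adjusted p 0.140). ZFP326, a subunit of the DBIRD splicing complex, was not called, at 32.4 ± 1.31 CPM in WT mock, against 30.9 ± 0.424 CPM in WT doxorubicin cells.

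Of the 9 broad promoter activators and repressors, 3 rose and 3 fell in each genotype. The all-gene shares were 25.9% and 21.4% in WT and 19.9% and 14.6% in KO. ZFP143, counterpart of the human activator ZNF143 of many housekeeping promoters, went from 21.2, 20.1 and 18.4 to 32.4, 30.1 and 28.2 CPM in WT, and in KO from 23.2, 22.3 and 20.4 to 30.6, 35.0 and 31.3 CPM. ZFP281, a repressor and activator of pluripotency genes, went from 54.5, 56.9 and 48.4 to 79.5, 80.1 and 82.6 CPM in WT, and in KO from 55.8, 59.1 and 53.3 to 75.0, 80.2 and 81.7 CPM. ZFP64, which activates the gene MLL in human leukaemia cells, went from 27.5, 28.5 and 29.7 to 48.7, 64.1 and 67.0 CPM in WT, and in KO from 34.0, 28.9 and 28.5 to 39.5, 55.3 and 49.5 CPM. In all 3 genes the treated libraries of a genotype lay above its mock libraries. Their log2 changes in WT and KO were 0.58 and 0.53 for ZFP143, 0.59 and 0.49 for ZFP281 and 1.03 and 0.63 for ZFP64.

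The falls in that list were ZFP148 (ZBP-89, binder of GC-rich promoters), ZFP91 (a ubiquitin ligase of NF-kappaB signalling) and ZFP161. ZFP148 was at 75.6 ± 2.89 CPM in WT mock, against 56.1 ± 5.15 CPM in WT doxorubicin cells, ZFP91 at 86.1 ± 4.47 and 67.6 ± 7.47 CPM, and ZFP161 at 17.0 ± 0.567 and 11.1 ± 2.00 CPM (SD, n = 3 each). The log2 changes in WT and KO were -0.43 and -0.40, -0.35 and -0.38, and -0.59 and -0.52 (limma adjusted p 0.00596 to 0.0284). ZFP91 lost its call without any 1 of 3 libraries in WT (mock 2 and 3, doxorubicin 3) and 5 in KO (mock 1 to 3, doxorubicin 2 and 3). In KO, ZFP148 lost it without doxorubicin library 3, and ZFP161 without mock library 3 or doxorubicin library 3. ZFP410, which acts on the gene Chd4, ZFP516 and ZFP639 were not called, at log2 changes of 0.14, -0.09 and -0.17 in WT.

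**Figure D3:**
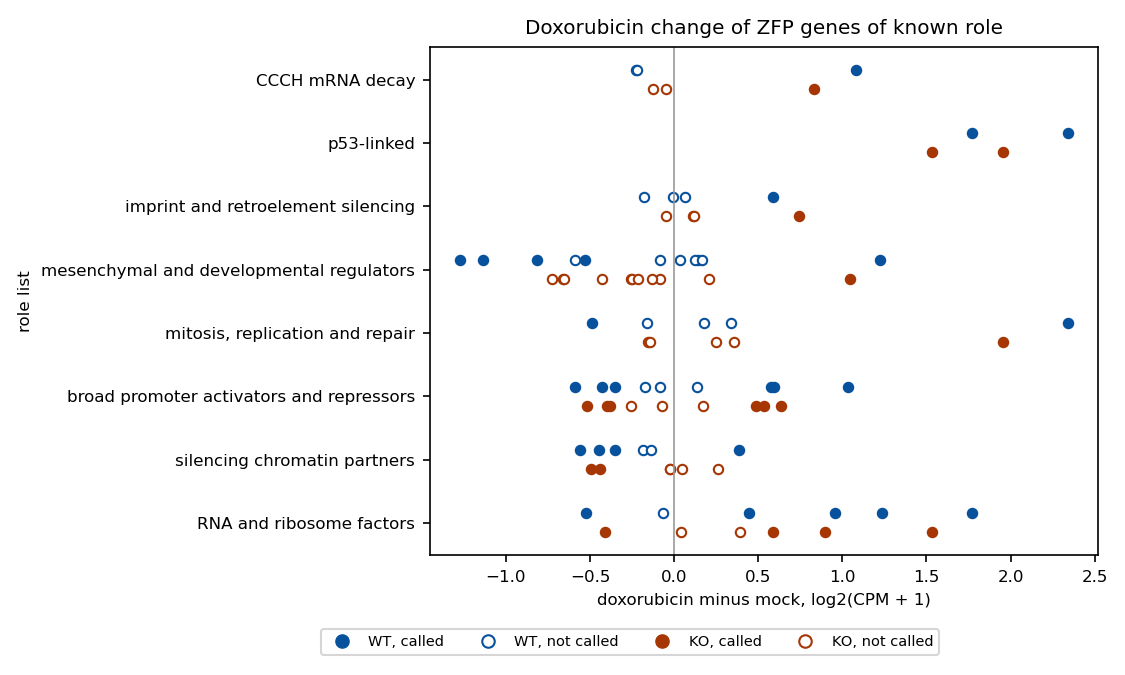
Doxorubicin minus mock on the log2(CPM + 1) scale for the ZFP genes of each role list in WT (blue) and KO (dark red), filled where limma called the gene. Both p53-linked members lie above 1.5, and the broad promoter regulators fall on both sides of 0. ZFP365, ZFP385A and ZFP516 are each in 2 lists.

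Mesenchymal and developmental regulators fell in 4 of 11 cases in WT and 0 of 11 in KO, with 1 rise (ZFP219) in each, and with the replicate block in 5 and 4 cases. Falls among all genes were 21.4% in WT and 14.6% in KO without the block. With it 3097 of all 10292 genes fell in WT and 2473 (24.0%) in KO. ZFP467, a promoter of adipocyte fate, went from 17.2, 10.2 and 9.32 to 7.08, 2.73 and 3.95 CPM in WT, and from 14.2, 8.08 and 11.7 to 9.47, 3.79 and 6.75 CPM in KO, where the groups overlapped. The WT change was -1.27 (SE 0.36, limma adjusted p = 0.0130, a call that ended without WT mock library 1 or WT doxorubicin library 2) and the KO change -0.73 (SE 0.36, adjusted p = 0.139, and 0.00341 with the block). ZFP618, which binds UHRF2 in human cells, fell from 33.3 ± 6.27 to 14.9 ± 5.27 CPM in WT (SD, n = 3 each). In KO it was at 34.5 ± 3.20 CPM in mock and 21.9 ± 5.64 CPM in doxorubicin cells. Its log2 changes were -1.14 (limma adjusted p = 0.00268) and -0.65 (adjusted p = 0.0547, and 0.00532 with the block).

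ZFP521, which holds back adipocyte fate, changed by -0.81 in WT (SE 0.30, limma adjusted p = 0.0428) and ZFP462 by -0.53 (SE 0.18, adjusted p = 0.0318). Both calls rested on single libraries: that of ZFP521 ended without WT mock library 1 or 3, KO mock library 1, WT doxorubicin library 2 or 3, or KO doxorubicin library 3, and that of ZFP462 without WT mock or WT doxorubicin library 2 or 3. ZFP503, a Nolz family repressor of limb and striatum development, was not called in WT (log2 -0.59, adjusted p = 0.158, and 0.00580 with the block). Without a call in either genotype were also ZFP217, ZFP238, ZFP516, ZFP608 and ZFP704, between -0.09 and 0.17 in WT.

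Of the imprint and retroelement silencers, 1 of 4 was called in each genotype. ZFP809, which silences murine leukaemia virus DNA, rose from 14.2, 15.8 and 12.9 to 23.3, 19.5 and 23.4 CPM in WT, and in KO from 12.2, 13.3 and 13.4 to 23.5, 18.0 and 26.4 CPM. All treated libraries were above all mock libraries. The fit put the log2 change at 0.59 in WT (SE 0.15, limma adjusted p = 0.00892) and 0.74 in KO (SE 0.15, adjusted p = 0.00401). ZFP57 and ZFP445, which keep methylation at imprinted loci, and ZFP568, which represses a placental transcript of Igf2, lay between -0.18 and 0.06 in WT and were not called.

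Silencing chromatin partners fell in 3 of 6 cases in WT and 2 of 6 in KO, with 1 rise in WT and 0 in KO. Falls among all genes were 21.4% in WT and 14.6% in KO. ZFP277, which with Bmi1 represses the Ink4a/Arf locus in mouse fibroblasts, was at 17.0, 19.0 and 17.5 CPM in WT mock, 14.7, 11.7 and 9.52 CPM in WT doxorubicin, 23.6, 21.9 and 19.1 CPM in KO mock and 15.6, 17.1 and 12.5 CPM in KO doxorubicin libraries. The treated libraries lay below the mock libraries in both genotypes. Its log2 change was -0.56 in WT (SE 0.17, limma adjusted p = 0.0197) and -0.49 in KO (SE 0.17, adjusted p = 0.0437). The WT call ended without WT mock library 2 or WT doxorubicin library 3. The KO call ended without any 1 of 8 libraries (WT mock 1 to 3, KO mock 1 and 2, WT doxorubicin 2, KO doxorubicin 1 and 3), with a largest adjusted p of 0.160.

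ZFP532, ZFP592 and ZFP687 belong in human cells to 1 complex with ZMYND8, and their changes had different signs. ZFP532 fell in both genotypes (log2 -0.45 and -0.44, limma adjusted p = 0.0354 and 0.0490), ZFP592 rose in WT (0.38, adjusted p = 0.0287) and ZFP687 was at -0.14 in WT without a call. The ZFP532 call ended in WT without any 1 WT mock library or WT doxorubicin library 2, and in KO without any 1 of the mock libraries, WT doxorubicin library 1 or KO doxorubicin library 2 or 3. That of ZFP592 ended without WT mock library 1 or 3 or WT doxorubicin library 2 or 3. ZFP518B, a partner of the histone methyltransferases G9a and GLP, was called lower in WT at -0.35 (adjusted p = 0.0439), with overlapping libraries and with the call ending without any 1 of 8 libraries (WT mock 2 and 3, KO mock 1 to 3, WT doxorubicin 2 and 3, KO doxorubicin 2). ZFP518, its relative, was not called, at -0.18.

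Of the members of mitosis, replication and repair, ZFP365 rose in both genotypes and ZFP828 (CHAMP1, which links spindle microtubules to kinetochores) was lower in WT, at 42.9, 45.6 and 44.0 CPM in mock and 41.1, 28.4 and 25.9 CPM in doxorubicin libraries. Its change was -0.49 in WT (SE 0.18, limma adjusted p = 0.0393) and -0.14 in KO (adjusted p = 0.565). The WT call ended without any 1 WT mock library, KO mock library 1, or WT doxorubicin library 2 or 3 (largest adjusted p 0.146). ZFP207, ZFP668 and ZFP830 were not called, at log2 -0.16, 0.34 and 0.18 in WT, although with the block ZFP668 was called in both genotypes (adjusted p = 0.0187 and 0.0168).

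Genes listed as co-repressor machinery of KRAB zinc finger proteins moved mostly downward among those called. Of 23 measured genes, 10 fell and 2 rose in each genotype, with medians of -0.34 in WT and -0.26 in KO, where 21.4% of all genes fell in WT and 14.6% in KO. With the replicate block 15 fell in WT and 12 in KO, where 3097 and 2473 of all 10292 genes fell. UHRF1, which brings DNA methyltransferase to new DNA, fell from 48.9 ± 7.98 to 6.74 ± 3.89 CPM in WT (log2 -2.79, SE 0.34, limma adjusted p = 9.83e-05) while the KO mean went from 65.1 ± 16.7 to 8.41 ± 2.56 CPM, a change of -2.82 (SE 0.34, adjusted p = 0.000206; SD, n = 3 each). DNMT1, the maintenance methyltransferase, fell by 1.42 and 1.39 on the log2 scale, and the HP1 genes CBX3 and CBX5 by 1.30 and 1.14 and by 1.18 and 1.03. These genes were picked as the largest changes among the called genes of the list. Values of TRIM28 and SETDB1 are not given here, so the examples do not stand for them. Among members with the KRAB pattern, 15 of 97 rose and 13 fell in WT, and 15 rose and 6 fell in KO, against 33 and 31 of 139 in WT and 26 and 12 in KO without the pattern. Of 80 measured genes of other zinc finger families, 24 rose and 16 fell in WT and 12 rose and 7 fell in KO. For these classes the shares of all genes were 25.9% higher and 21.4% lower in WT, and 19.9% and 14.6% in KO. KLF5, a growth regulator, had the largest of these changes in both genotypes (log2 2.63 and 2.22), with KLF10 at 1.46 and 1.21.

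By position, the 18 measured members of chromosome 13 had 4 rises and 0 falls in WT and 5 rises and 0 falls in KO, with medians of 0.23 and 0.13. The 56 of chromosome 7 had 8 rises and 7 falls in WT and 6 and 4 in KO, with medians of -0.14 and 0.06. The 27 of chromosome 17 had 6 rises and 6 falls in WT and 7 and 2 in KO. Of all genes 25.9% rose and 21.4% fell in WT, and 19.9% and 14.6% in KO. Genes of 1 array resemble one another in sequence, so their values are not independent.

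Loss of lincRNA-p21 was compared next, within each treatment. In mock cells no ZFP gene was called: limma called 0 of 254 members without the block, where 0.00% of all 10648 genes were called, and 0 with it, where 0.920% were. At an unadjusted p under 0.05 there were 9 members without and 38 with the block, beside 440 and 2455 of all genes. The members lay slightly above WT, with 192 of 254 (75.6%) higher in KO, beside 66.6% of all genes, and a median of 0.09 beside 0.06. Centring on the median gene brought the median to 0.02 and the count to 145 members, with 49.0% of all genes higher. Leaving out pair 3 in the blocked fit gave 17 calls (6.69% of members), 12 higher and 5 lower. That fit called 2438 of all 10648 genes.

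The largest mock differences, none of them called, were those of ZFP286, ZFP184 and ZFP608 above WT and ZFP14, ZFP677 and ZFP697 below. ZFP286 was at 6.00, 5.46 and 6.48 CPM in WT, against 8.34, 8.23 and 10.7 CPM in KO libraries, without overlap (log2 0.53, SE 0.15, limma adjusted p = 0.978, and 0.0793 with the block). ZFP184 was at 2.37, 2.91 and 2.43 CPM in WT, against 4.20, 3.59 and 4.51 CPM in KO, also without overlap (log2 0.51). ZFP608 was at log2 0.51, ZFP14 at -0.36, ZFP677 at -0.28 and ZFP697 at -0.27. ZFP14 ran from 2.72 to 9.14 CPM within the WT libraries alone.

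After doxorubicin the members lay further above WT in KO cells. Of 245 members 188 (76.7%) were higher in KO, beside 54.2% of all genes, with a median of 0.16 beside 0.03. Quantile normalization and median centring left that median at 0.18 and 0.13, and leaving out 1 library gave 0.12 (without WT doxorubicin library 2) to 0.25 (without WT doxorubicin library 1). By replicate number, the median was 0.07 in pair 1, 0.26 in pair 2 and 0.16 in pair 3, with all genes at 0.01, 0.05 and 0.04. Members with 10 or more fingers were higher in KO in 105 of 122 cases, with a median of 0.19. Those with 5 to 9 fingers were in 54 of 75 (median 0.13), those with 1 to 4 in 27 of 40 (median 0.14) and those with none in 2 of 7 (median -0.04). The mock counts of these classes, in that order, were 95 of 131, 60 of 76, 33 of 39 and 3 of 7. Their mock medians were 0.09, 0.08, 0.07 and -0.03.

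Without the replicate block limma called 0 of 245 members, where 0.00% of all 11125 genes were called. At an unadjusted p under 0.05 were 20 members and 1246 of all genes. With the block it called 33 members higher (13.5%, all genes 11.8%) and 15 lower (6.12%, all genes 13.6%). The count of 48 fell to 9, 28 or 12 when pair 1, 2 or 3 was left out. The 2820 calls among all genes became 692, 2590 or 1560. Of the 33, 15 had the KRAB pattern, as had 2 of the 15 lower in KO. The pattern was present in 101 of the members tested here. Of the 143 without it, 18 were called higher and 13 lower. The blocked fit rests on 3 pairs and few residual degrees of freedom.

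**Figure D4:**
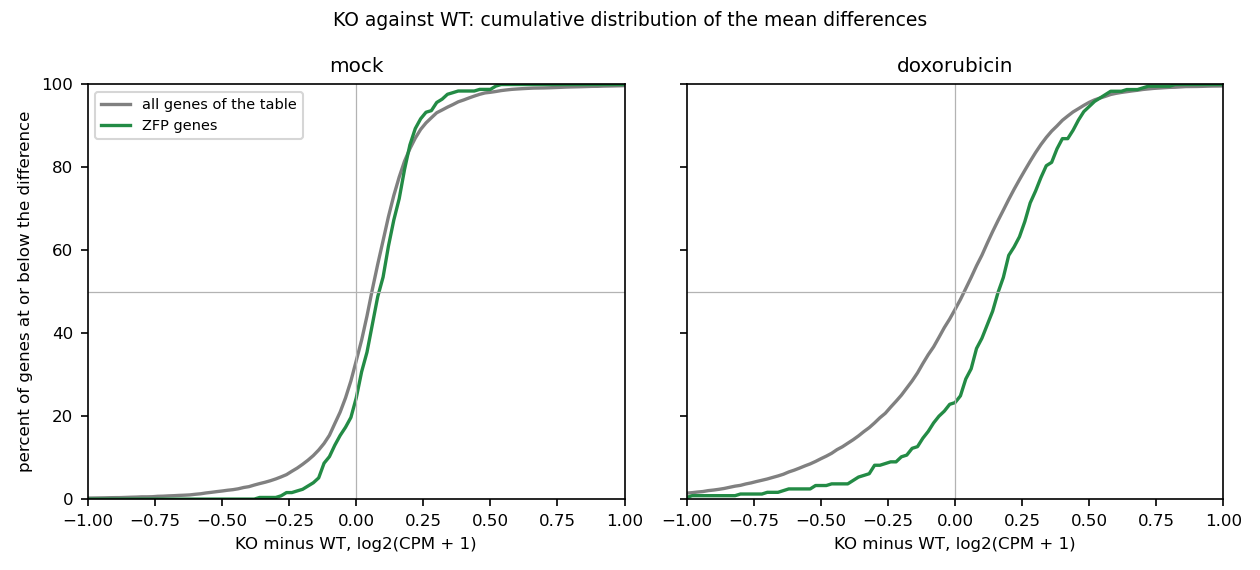
Percent of genes whose KO minus WT difference (log2(CPM + 1), mean of 3 libraries each) was at or below the value on the horizontal axis, in mock (left) and doxorubicin (right), for the ZFP genes (green) and all genes of the table (grey). The ZFP curve lies to the right of the other at its middle, with medians of 0.09 against 0.06 in mock and 0.16 against 0.03 after doxorubicin.

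The largest differences upward among the blocked calls were those of ZFP286, ZFP810, ZFP768, ZFP157 and ZFP606, each with 10 to 13 fingers and all but ZFP768 with the KRAB pattern. ZFP286 was at 3.40, 2.05 and 2.17 CPM in WT, against 5.57, 4.68 and 5.08 CPM in KO libraries, 2.01-fold higher in KO (log2 0.80, limma adjusted p = 0.443, and 0.0140 with the block). ZFP810 was at 5.97, 2.78 and 3.45 CPM in WT, against 11.5, 4.31 and 6.85 CPM in KO, with library 1 the highest of each genotype and the groups overlapping (log2 0.72, adjusted p = 0.0172 with the block). ZFP768 was at 22.4, 15.1 and 14.4 CPM in WT, against 31.4, 27.6 and 25.0 CPM in KO, without overlap (log2 0.68, adjusted p = 0.0101 with the block). ZFP286 and ZFP810 both fell with doxorubicin in WT, to 0.425 and 0.363 of the mock mean.

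ZFP157 was at 8.26, 6.48 and 7.01 CPM in WT, against 13.6, 12.3 and 9.41 CPM in KO, and ZFP606, whose promoter window is shown above, at 7.84, 5.36 and 6.68 and 12.0, 8.89 and 10.2 CPM. KO libraries lay above WT libraries in both genes and in both treatments. The differences were 0.62 (limma adjusted p = 0.0230 with the block) and 0.58 (adjusted p = 0.0203 with the block). Leaving out pair 1 or 3 ended the blocked calls of ZFP810 and ZFP606 and leaving out pair 1 or 2 that of ZFP157, while those of ZFP286 and ZFP768 held in all 5 blocked alternatives.

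The largest differences downward were those of ZFP707, ZFP367, ZFP37, ZFP654 and ZFP423. ZFP707, whose mock libraries overlapped between genotypes at 5.81 ± 0.519 CPM in WT, against 5.94 ± 0.350 CPM in KO (SD, n = 3 each), stood after doxorubicin at 84.1, 74.6 and 116 CPM in WT, against 29.5, 39.9 and 68.9 CPM in KO. No KO library reached the lowest WT library (log2 -1.04, limma adjusted p = 0.443, and 0.00650 with the block). ZFP367 was at 12.6, 57.8 and 18.5 CPM in WT, against 8.13, 17.7 and 10.8 CPM in KO, with library 2 the highest of each genotype and the groups overlapping (log2 -0.98, adjusted p = 0.0188 with the block). ZFP37 was also highest in library 2, at 30.1, 77.2 and 31.8 CPM in WT, against 18.4, 36.7 and 19.2 CPM in KO (log2 -0.81, adjusted p = 0.00650 with the block).

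ZFP654 was at 16.6, 30.0 and 23.1 CPM in WT, against 10.2, 13.4 and 17.8 CPM in KO (log2 -0.71, limma adjusted p = 0.0221 with the block). ZFP423, a regulator of adipocyte commitment that only the doxorubicin table lists, was at 12.4, 15.6 and 21.6 CPM in WT, against 6.85, 10.3 and 13.7 CPM in KO (log2 -0.65, adjusted p = 0.0124 with the block). Both had KO below WT in each of the 3 pairs, with overlapping groups. Their blocked calls ended without pair 1, whereas those of ZFP707, ZFP367 and ZFP37 held in all 5 blocked alternatives.

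**Figure D5:**
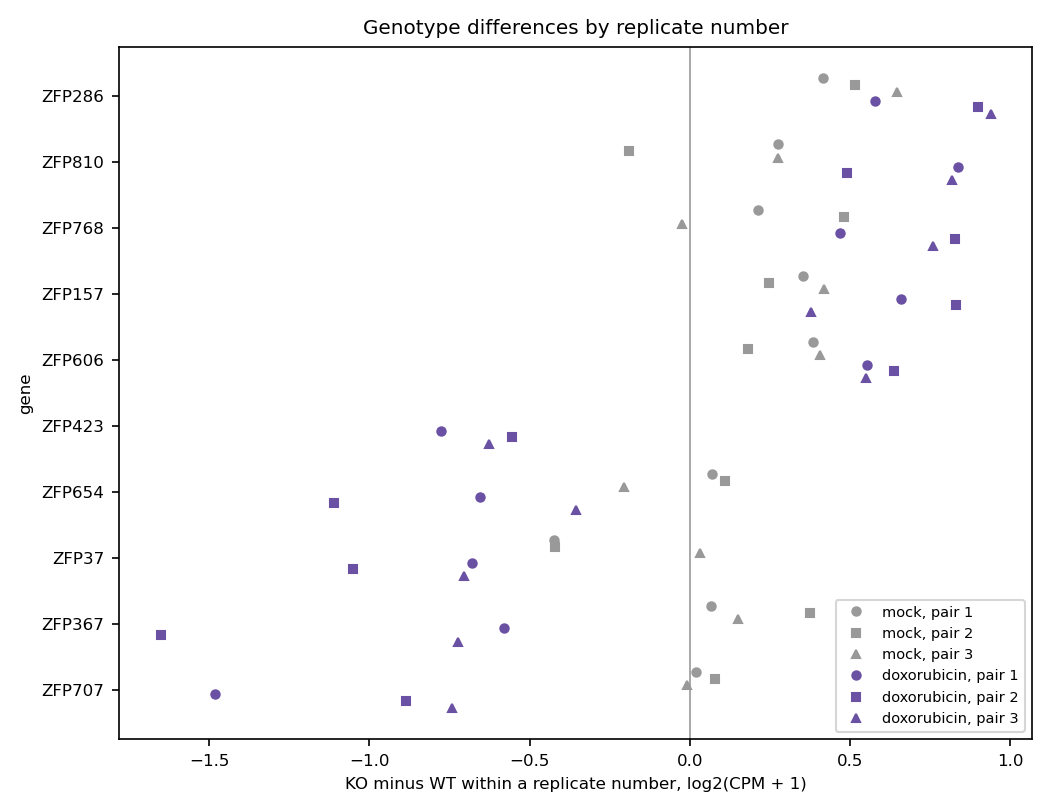
KO minus WT on the log2(CPM + 1) scale within each replicate number, in mock (grey) and doxorubicin (purple), for the 5 largest differences in each direction called with the block after doxorubicin. All doxorubicin pairs of a gene lie on 1 side of 0, from 0.38 to 0.94 for the upper 5 genes and from -1.65 to -0.36 for the lower 5, and ZFP423 has no mock values.

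The other 28 members called higher in KO with the block were ZFP12, ZFP26, ZFP27, ZFP36L2, ZFP52, ZFP90, ZFP146, ZFP212, ZFP354C, ZFP358, ZFP422, ZFP445, ZFP503, ZFP518B, ZFP521, ZFP523, ZFP526, ZFP560, ZFP579, ZFP618, ZFP629, ZFP644, ZFP687, ZFP799, ZFP827, ZFP828, ZFP866 and ZFP869. The other 10 called lower were ZFP36, ZFP64, ZFP346, ZFP385A, ZFP398, ZFP428, ZFP597, ZFP598, ZFP622 and ZFP777. In mock cells 31 of the 33 and 6 of the 14 measured there had differences of the same sign. Called or not, 75.6% of members and 66.6% of all genes were higher in KO in mock cells. The called differences ran from 0.30 to 0.80 upward and from -1.04 to -0.31 downward. With the block 10 of 23 genes of the KRAB co-repressor machinery were also called higher in KO and 0 lower, among them MTA1 (log2 0.43) and CBX3 (0.43), beside 11.8% and 13.6% of all genes, and without the block 0 were called. Of 82 genes of other zinc finger families 11 were called higher and 8 lower with the block, and 0 without it.

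Whether doxorubicin acted differently in the 2 genotypes was asked by the interaction term. It called 0 of 237 members, without the block (0.00% of 10292 genes) or with it (0.00%). At an unadjusted p under 0.05 were 6 and 20 members, beside 468 and 1610 of all genes. The median interaction was 0.10 for the members and 0.00 for all genes, with 153 of 237 members above 0. The largest estimates, none of them called, were ZFP810 (0.60, SE 0.47), ZFP579 (0.56) and ZFP467 (0.55) upward and ZFP367 (-1.18, SE 0.62), ZFP707 (-1.07, SE 0.37) and ZFP398 (-0.72) downward. ZFP707 had a limma adjusted p of 0.922 for this term, and 0.206 with the block. ZFP398 went from 3.98, 5.11 and 4.28 to 10.1, 9.85 and 14.5 CPM in WT, and in KO from 5.79, 4.24 and 5.64 to 6.72, 6.10 and 10.2 CPM. These terms share libraries with the comparisons above and are not separate evidence.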

How the data were processed

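Libraries were made with a stranded mRNA kit, per the labels' protocols. TopHat2 2.0.6, HTSeq, edgeR and the assembly NCBIM37 are listed, without their roles, per the submitters' processing notes, and the strand setting of the counting is not given in the sources used here. The authors deposited CPM per gene in 2 tables, 1 per treatment, marked as without chromosomes X and Y. Values were whole multiples of 1 read over a library total, within 0.001 of a read, so both tables shared a scale. Count tests were not run because the unit was CPM.

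The test was limma 3.58.1 (R 4.3.3) on log2(CPM + 1), a scale that understates the change of low genes, with Benjamini-Hochberg adjustment at 0.05 over all genes fitted. The fit within a table was tested on simulated libraries that shared no replicate effect. Contrasts across the 2 tables were not simulated. Genotypes were contrasted inside a table, and treatments across the 2 tables. WT and KO share replicate numbers, and same-numbered libraries deviated together from their group means, at r = 0.710 to 0.855 in mock and 0.669 to 0.800 after doxorubicin, so the number was taken to pair the libraries and a replicate block was fitted beside the main analysis. These correlations were taken between genotypes within a treatment. Whether a number also links mock with doxorubicin libraries was not checked, though the blocked doxorubicin and interaction fits take it to. What a number marks is not in the labels, and p-values measure the spread between these libraries, which may be technical in part.

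Members matched a GRCm38 annotation by symbol (244) or synonym (17), and 1 did not match. Levels per kilobase used the length of the GENCODE M21 transcript with the longest coding sequence. Named genes are those of the role lists, the 6 largest doxorubicin changes each way called in both genotypes, and the 5 largest genotype differences each way called with the block, or the 3 largest where none was called. Complete lists of called members, ZFP260 and others shown as promoter windows, and the highest genes per kilobase stand outside that rule. A called member is not reported here by name. The members and lists were chosen with earlier results of these data known.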

Additional observations from a re-analysis of the deposited data

How the results depend on the processing

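Counts of called ZFP genes were recomputed with the replicate block, 2 other pseudocounts (0.1 and 5 CPM), a mean of at least 5 CPM, quantile normalization, median centring, genes in both tables only and each library left out, and, chosen after seeing the data, with the block combined with either scaling or with 1 replicate number left out. The paired fit (replicate block) gave 48 calls for KO against WT after doxorubicin, where 0 were called without it. It gave 46 when joined to quantile normalization and 42 to median centring. Among all 11125 genes these counts were 2820, 0, 2602 and 2718. For doxorubicin in KO cells the paired fit gave 63 higher and 37 lower, beside 3051 and 2473 of all 10292 genes. Falls with doxorubicin numbered 73 and 87 in WT and 44 and 49 in KO under the block with quantile normalization and median centring. All-gene falls under those fits numbered 3687 and 3886 in WT and 2910 and 3108 in KO. Leaving out 1 library gave 29 to 60 falls and 40 to 48 rises in WT, 6 to 22 falls and 29 to 43 rises in KO, and 0 calls for KO against WT in either treatment and for the interaction. Among all genes falls then ran from 1594 to 2310 and rises from 2276 to 2664 in WT. The all-gene ranges in KO were 1003 to 1611 falls and 1543 to 2107 rises. In the blocked fit without 1 replicate number, KO against WT had 0 to 17 calls in mock and 9, 28 and 12 after doxorubicin (without number 1, 2 and 3), and doxorubicin 16 to 29 falls in KO and 32 to 62 in WT. All-gene falls in that fit ran from 1693 to 2087 in KO and from 2350 to 2814 in WT. The interaction had 0 calls in every alternative run. Of 4358 values of named genes under the alternatives, 0 called values changed sign, 116 lost a call, 177 gained one and 168 uncalled values changed sign. The median over the members in mock, 0.09, was 0.03 with quantile normalization and 0.02 with median centring, and for doxorubicin in WT and KO it was -0.13 and -0.03 with median centring. The planned count-based tests were not run. The cause of these shifts was not tested. At 2 CPM a member had 29 to 41 reads, so counting error weighs most on the lowest members.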

Other observations

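The mock table alone listed 17 members, all low, and the doxorubicin table alone 8. The WT floor of 2 CPM decides in part which table a gene is in, so no change is read from it. ZFP14, ZFP101 and ZFP395 were the highest of the 17, with WT mock means of 5.79, 5.86 and 5.73 CPM. Of the 8, ZFP423 and ZFP296 were the highest. ZFP296, a partner of the pluripotency factor Klf4 in mouse, was at 5.07, 9.56 and 14.1 CPM in the WT doxorubicin libraries, and its KO doxorubicin libraries read 4.35, 7.21 and 9.61 CPM.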
